A study of Mus musculus with 2 samples.

Results

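Granzymes and perforin are the proteins with which natural killer (NK) cells and CD8 T cells kill their targets. They are stored in cytotoxic granules and released at the contact with the target cell, where perforin, the product of *Prf1*, forms pores through which granzymes enter. Granzymes are serine proteases with different cleavage preferences. Granzyme A (*Gzma*) cleaves after basic residues, granzyme B (*Gzmb*) cleaves after aspartate and activates caspases, and granzyme K (*Gzmk*) is a tryptase that marks a subset of memory and tumor-infiltrating CD8 T cells. Granzymes C, D, E, F and G (*Gzmc*, *Gzmd*, *Gzme*, *Gzmf* and *Gzmg*) belong to a rodent expansion next to *Gzmb* and are made by strongly stimulated killer cells. The 9 genes were taken by symbol from the 33696 genes listed for the libraries, and all 9 were found and had counts in both libraries. *Gzmm* and *Gzmn*, the other granzymes in the list of granule genes used below, had under 50 UMIs in NK-like cells of both libraries together.

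The RNA came from subcutaneous tumors of CT26, a mouse colon carcinoma line, grown in male BALB/c mice aged 6 to 8 weeks. The UT mice received no treatment, and the BUP mice received BUP-Gel, a hydrogel that carries the local anesthetic bupivacaine. Live cells of 3 tumors were pooled into 1 library per condition, and sorted CD45+ and CD45- cells were mixed at 4 to 1 per the labels, so the size of the immune compartment was set by the sort. With 1 library per condition there was no test between UT and BUP, and no animal could be told from another.

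The UT library held 83228442 unique molecular identifiers (UMIs, each standing for 1 captured RNA molecule) and the BUP library 89918925, and 7163 and 6776 cells were kept. The 2 libraries shared 76 cell barcodes, 1.01% of the UT and 1.05% of the BUP barcodes. Levels below are UMIs of a gene per 1000000 UMIs of a cell class (CPM), and each molecule was counted once at its 5′ end, so levels of different genes were not scaled by length. The 95% intervals are exact Poisson intervals for sums of UMIs and exact binomial intervals for shares of cells, and they cover counting error alone. Intervals of sums and of their ratios leave out the spread between cells of a class. The spread between mice or between preparations is unknown.

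Cell classes were rebuilt without the 9 genes, and the names rest on other markers. The NK-like cells (325 UT and 257 BUP) held *Ncr1*, which encodes the NK receptor NKp46, at 908 CPM in UT and 816 in BUP, while the T cell gene *Cd3e* stood at 32.4 and 37.5. The CD8 T-like cells outside cell cycle (226 UT and 384 BUP) held *Cd3e* at 1524 and 1504 CPM and *Cd8a* at 1067 and 940, while *Ncr1* stood at 14.5 and 8.31. A cycling CD8 T-like class (93 and 191 cells), a CD8 T-like class led by DNA replication genes (59 and 57 cells) and a cycling NK-like class (55 and 51 cells) were kept apart. NK-like cells made up 4.54% of the UT and 3.79% of the BUP cells, and CD8 T-like cells outside cell cycle 3.16% and 5.67%. Macrophage marker RNA was higher in UT in 4 of these 5 classes, at 208 against 120 CPM in NK-like cells, 316 against 167 in CD8 T-like cells, 166 against 98.2 in replication-led and 147 against 109 in cycling CD8 T-like cells. It was higher in BUP in cycling NK-like cells, at 172 in UT and 227 in BUP, and its part in the values below was not tested.

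The granzyme genes lie in 2 clusters. On the GRCm39 assembly *Gzma* is at chr13:113230355-113237524 and *Gzmk* at chr13:113308142-113362442, both on the minus strand, and *Prf1* stands alone at chr10:61133546-61140461 on the plus strand. On chromosome 14, between *Ctsg* (cathepsin G) and *Gzmb*, the order is *Gzme* (chr14:56355083-56358082), *Gzmd* (chr14:56367013-56370065), *Gzmg* (chr14:56394039-56397036), *Gzmn*, *Gzmf* (chr14:56442720-56448874), *Gzmc* (chr14:56468857-56479211) and *Gzmb* (chr14:56496295-56499717), all of the measured members on the minus strand. From the 3′ end of *Gzme* to the start of *Gzmb* the locus spans 144.635 kb. The transcripts of the 8 member granzymes have 5 exons and that of *Prf1* has 3.

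*Gzmd*, *Gzme*, *Gzmf* and *Gzmg* are near copies of each other, so it matters for their counts whether a short read can tell them apart. Their second exons are printed from the GRCm39 assembly, 5′ to 3′ on the minus strand, with the positions at which the 4 genes are not all alike in capitals. The exon spans chr14:56356755-56356905 in *Gzme*, chr14:56368687-56368837 in *Gzmd*, chr14:56395752-56395902 in *Gzmg* and chr14:56444366-56444516 in *Gzmf*, and is 151 bases long in each.
Gzmd exon 2: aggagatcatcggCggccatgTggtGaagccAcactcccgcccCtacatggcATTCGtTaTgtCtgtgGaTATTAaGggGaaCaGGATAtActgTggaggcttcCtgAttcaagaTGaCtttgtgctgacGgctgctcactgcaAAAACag
Gzme exon 2: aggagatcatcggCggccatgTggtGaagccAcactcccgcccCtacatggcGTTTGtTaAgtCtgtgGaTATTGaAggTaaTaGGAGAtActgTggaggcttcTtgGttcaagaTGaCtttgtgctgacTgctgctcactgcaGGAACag
Gzmg exon 2: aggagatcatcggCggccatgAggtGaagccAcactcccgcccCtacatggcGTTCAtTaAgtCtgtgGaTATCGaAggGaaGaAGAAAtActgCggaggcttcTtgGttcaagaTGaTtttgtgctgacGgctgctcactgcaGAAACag
Gzmf exon 2: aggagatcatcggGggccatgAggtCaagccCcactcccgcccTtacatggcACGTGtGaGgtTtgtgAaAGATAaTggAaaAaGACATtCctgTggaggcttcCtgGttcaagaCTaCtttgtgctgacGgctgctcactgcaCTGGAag

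Of the 151 positions, 111 were the same in all 4 genes and 40 were not. *Gzme* differed from *Gzmd* at 13 positions, *Gzmg* at 15 and *Gzmf* at 31, so *Gzmf* is the most distant of the 4. Over the whole coding sequence *Gzmd* and *Gzme* were 93.3% identical, *Gzme* and *Gzmg* 89.5%, *Gzmf* and *Gzmg* 86.8% and *Gzmd* and *Gzmf* 83.3%. *Gzmb* and *Gzmc* were 75.9% identical, and *Gzma* and *Gzmk* 56.0%. Windows of 90 bases that occur unaltered in another member made up 19 of 875 windows of the *Gzmd* transcript (2.17%), 8 of 827 of *Gzme* (0.967%) and 13 of 820 of *Gzmg* (1.59%), and none of the other 6 transcripts. Counts of *Gzmd*, *Gzme* and *Gzmg* are uncertain to the extent that reads fell in these shared stretches, and reads of BALB/c mice were placed on a reference of another strain.

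The promoters of *Gzmc* to *Gzmg* are alike, while that of *Gzmb*, in the same cluster, is not. The 150 bases before the RefSeq transcription start, from a table on the older GRCm38.p6 assembly, are printed for *Gzmg* and *Gzmf*, the genes with the most uneven counts below, for *Gzmb* and *Prf1*, which moved together across classes, and for *Gzmk*, the member with the smallest share of its RNA in NK-like cells. Capitals mark TGTGGT or its reverse complement ACCACA, the core of the site bound by Runx factors, which regulate cytotoxic genes. The stretches are *Gzmg* chr14:56159580-56159729 (minus strand), *Gzmf* chr14:56211408-56211557 (minus), *Gzmb* chr14:56262335-56262484 (minus), *Prf1* chr10:61297686-61297835 (plus) and *Gzmk* chr13:113180966-113181115 (minus).
Gzmg promoter: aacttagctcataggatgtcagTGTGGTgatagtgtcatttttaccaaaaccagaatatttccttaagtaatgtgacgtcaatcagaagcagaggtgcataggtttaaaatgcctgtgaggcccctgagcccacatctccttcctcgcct
Gzmf promoter: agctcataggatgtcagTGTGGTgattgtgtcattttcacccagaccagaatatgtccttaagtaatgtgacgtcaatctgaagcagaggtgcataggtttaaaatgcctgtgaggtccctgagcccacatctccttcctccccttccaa
Gzmb promoter: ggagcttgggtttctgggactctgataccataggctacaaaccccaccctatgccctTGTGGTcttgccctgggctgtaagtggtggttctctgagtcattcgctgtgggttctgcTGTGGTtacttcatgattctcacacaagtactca
Prf1 promoter: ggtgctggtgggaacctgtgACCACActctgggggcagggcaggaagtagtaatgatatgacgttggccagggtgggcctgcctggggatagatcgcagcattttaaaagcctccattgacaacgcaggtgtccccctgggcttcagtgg
Gzmk promoter: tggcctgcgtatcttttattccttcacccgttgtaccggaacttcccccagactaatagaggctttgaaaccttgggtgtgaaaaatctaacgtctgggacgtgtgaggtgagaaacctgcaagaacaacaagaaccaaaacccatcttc

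In the 250 bases before the start, on either strand, TGTGGT was found in 8 of the 9 members, all but *Gzmk*, and in 14.05% of 32851 mouse promoters. The T-box core TCACAC was found in *Gzmk* and *Gzmb*, against 12.3% of promoters. GGAA, the ETS core, was found in 8 of 9 members and in 93.4% of all promoters, and TGANTCA, the AP-1 site, in *Gzmb* alone and in 6.75%. The promoters of *Gzmd* and *Gzme* were 94.8% identical, and the lowest identity among *Gzmc* to *Gzmg* was 70.2%, while that of *Gzmb* was 43.8% to 48.0% to each of them. The shared matches of *Gzmc* to *Gzmg* are thus not independent of each other. All matches describe letters only.

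Granzyme and perforin RNA was concentrated in the lymphoid cells. The 9 genes held 265943 UMIs in UT and 175311 in BUP. NK-like cells, cycling ones included, held 55.1% of these in UT and 50.3% in BUP. The 3 CD8 T-like classes held 10.7% and 24.6%, and clusters that carried NK or T markers but were left unnamed because of low depth or markers of other lineages held 25.7% and 18.95%. Non-immune cells held 4.79% and 3.00%, and myeloid and other immune cells 2.65% and 1.64%.

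The members differed in how they were divided between NK and CD8 cells. *Gzma* was an NK gene in these tumors, with 69.8% of its UMIs in NK-like cells in UT and 71.9% in BUP, and 0.551% and 0.825% in CD8 T-like cells. *Gzmg* was similar, with 70.8% and 79.3% in NK-like cells and 1.29% and 8.53% in CD8 T-like cells. *Gzmk* was the reverse, with 13.7% and 5.93% in NK-like cells and 34.5% and 51.1% in CD8 T-like cells. *Gzmb* and *Prf1* were shared, with 46.8% and 40.0% in NK-like cells and 19.1% and 26.0% in CD8 T-like cells in UT. In BUP the corresponding shares were 35.4% and 26.8% in NK-like cells and 34.3% and 42.7% in CD8 T-like cells. These shares follow cell numbers as well as levels per cell, and the CD8 T-like classes made up a larger part of the BUP library.

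**Figure D1:**
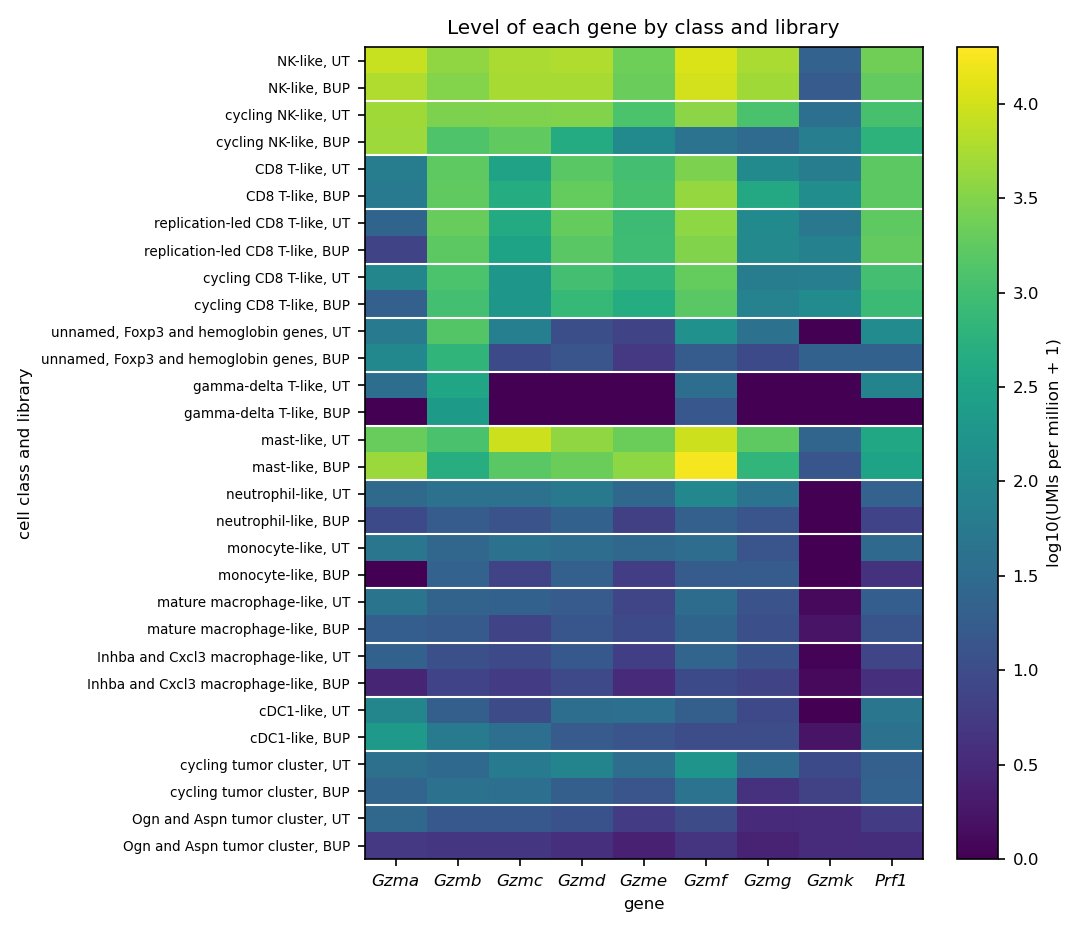
Level of each member (columns) in selected cell classes of the UT and BUP libraries (rows), as colors of log10(CPM + 1) from summed UMIs. NK-like cells are the brightest rows, and mast-like cells are also bright. The unnamed clusters with NK or T markers given in the text are not drawn. *Gzma* is bright in NK-like cells (8751 CPM in UT) and dark in CD8 T-like cells (64.3), and *Gzmk* low in every class drawn.

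NK-like cells held the highest sum of the 9 genes among the named classes, 46041 CPM in UT and 39329 in BUP. In UT, *Gzmf* was highest at 11402 CPM, followed by *Gzma* at 8751 and *Gzmd* at 6159. *Gzmc* (5668, interval 5582 to 5755) and *Gzmg* (5665, 5579 to 5752) could not be told apart, and below *Gzmb* at 3849 the intervals of *Prf1* (2308) and *Gzme* (2217) overlapped as well. *Gzmk* was lowest at 21.9 CPM, 64 UMIs in all. In BUP the order was the same down to *Gzmb*, with *Gzmd* (5517) and *Gzmc* (5478) overlapping, and *Gzme* (2074) lay above *Prf1* (1838).

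Every member had a lower summed level in BUP than in UT NK-like cells, by small amounts. *Gzma* stood at 8751 CPM in UT and 6250 in BUP, a log2 ratio of BUP over UT of -0.49 (-0.52 to -0.46). *Prf1* stood at 2308 and 1838 (-0.33, -0.39 to -0.27), and *Gzmb* at 3849 and 3196 (-0.27, -0.31 to -0.22). The rodent granzymes were closer, with *Gzmc* at 5668 and 5478 (-0.05, -0.08 to -0.01), *Gzmd* at -0.16, *Gzme* at -0.10, *Gzmf* at -0.17 and *Gzmg* at -0.22. *Gzmk*, with 64 and 35 UMIs, had an interval that spanned 0 (-0.41, -1.05 to 0.20). None of the 9 members was 1.5-fold higher or lower, where 1.71% of the 7934 genes with at least 50 UMIs were higher by that much and 5.66% lower. The median of the members was -0.22, and that of all genes tested -0.08.

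The direction of the rodent granzymes depended on how cells were weighted. With each NK-like cell weighted equally, in place of summed UMIs, the log2 ratios were 0.24 for *Gzmc*, 0.15 for *Gzmd*, 0.19 for *Gzme*, 0.24 for *Gzmf* and 0.25 for *Gzmg*, all above 0, while those of *Gzma* (-0.49), *Gzmb* (-0.36) and *Prf1* (-0.42) stayed below 0 and *Gzmk* stood at 0.06. After thinning to 2000 UMIs per cell, *Gzma*, *Gzmb* and *Prf1* were also detected in fewer BUP than UT cells. *Gzma* was found in 83.8% of the 315 UT cells and 76.6% of the 244 BUP cells, *Gzmb* in 85.1% and 77.5% and *Prf1* in 89.8% and 82.0%. *Gzmc* went the other way, at 51.1% and 59.0%, while the other rodent granzymes were not found in more BUP cells, with *Gzmd* at 35.2% and 33.6%, *Gzme* at 30.8% and 30.7%, *Gzmf* at 23.5% and 20.1% and *Gzmg* at 12.4% and 11.1%. Before thinning these shares were 87.4% and 80.9% for *Gzma*, 94.5% and 91.4% for *Gzmb*, 95.1% and 89.1% for *Prf1* and 64.3% and 66.1% for *Gzmc*. In the tumor cell cluster led by *Ogn* and *Aspn*, which should lack these genes, thinned shares were 2.03% and 0.406% for *Gzma*, 1.01% and 0.521% for *Gzmb*, 0.845% and 0.348% for *Prf1* and 1.35% and 0.174% for *Gzmc*. Median depths there were 14792 and 14861 UMIs, against 7297 and 7184 in NK-like cells.

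**Figure D2:**
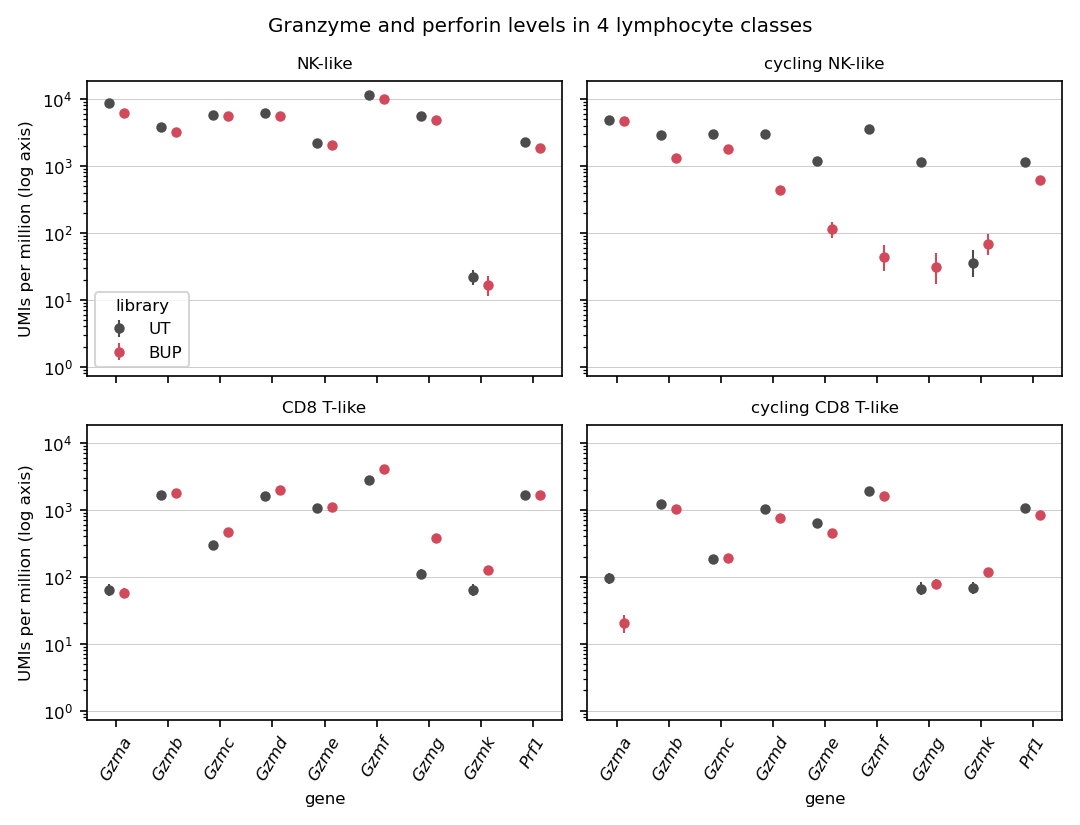
Level of each member in CPM (log axis) in 4 lymphoid classes, with UT and BUP points and exact 95% Poisson intervals. In NK-like cells the UT and BUP points lie close together for every member, while in CD8 T-like cells *Gzmg* stands at 111 and 385 CPM and *Gzmk* at 64.3 and 126.

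A small number of NK-like cells carried very large amounts of the rodent granzymes. The 9 genes made up a median of 1.70% of a cell's UMIs in UT and 1.32% in BUP, with an upper quartile of 3.31% and 2.78%, and the highest cells reached 35.2% and 38.8%. In 19 UT cells (5.85%, 3.56 to 8.98) and 16 BUP cells (6.23%, 3.60 to 9.91) at least 10% of all UMIs came from these genes. These cells were also deep, with medians of 14566 UMIs in UT and 11866.5 in BUP, against 6989 and 7108 in the remaining NK-like cells. The 5 cells with most *Gzmg* held 61.1% of its UMIs in UT and 82.1% in BUP, and the 5 with most *Gzmf* held 45.9% and 52.6%. *Gzma* and *Gzmb* were spread more evenly, with 13.7% and 15.5% of *Gzma* and 16.2% and 21.6% of *Gzmb* in the top 5 cells.

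**Figure D3:**
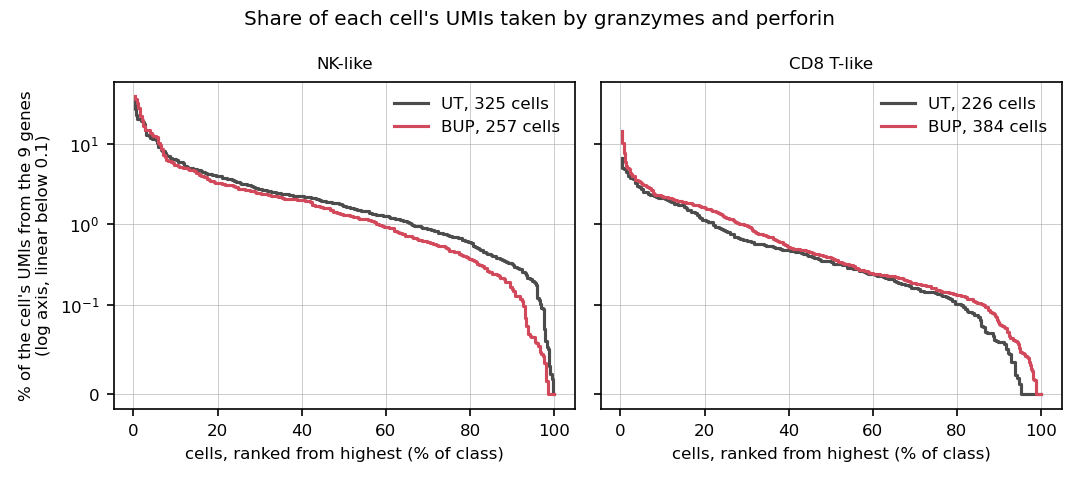
Percent of each cell's UMIs that came from the 9 members (log axis, linear near 0), with cells ranked from highest to lowest as a percent of the class, for NK-like and CD8 T-like cells of each library. NK-like cells reach 35.2% in UT and 38.8% in BUP, and CD8 T-like cells 6.60% and 14.4%.

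NK-like cells fell into states that differed in the rodent granzymes far more than in *Gzma*, *Gzmb* or *Prf1*. A finer clustering, again without the members, split off a state led by *Ccl5*, *Ccl4*, *Ccl3*, *Cd7*, *Tmem176b* and *Xcl1*, that is, mainly chemokines (149 UT and 144 BUP cells), and a state led by *Ctsg*, *Ifitm1*, *Tmem119*, *Basp1*, *Gm4022* and *Gadd45g* (153 and 94 cells). *Gzmf* stood at 267 CPM in UT and 204 in BUP in the chemokine-led state, and at 17509 and 19350 in the *Ctsg*-led state. *Gzmg* stood at 28.8 and 9.42 CPM in the first and 8773 and 9382 in the second, and *Gzmd* at 445 and 297 and at 9338 and 10258. *Gzma* was high in both states, at 7857 and 5425 CPM in the chemokine-led state and 9359 and 6692 in the *Ctsg*-led state, as was *Prf1*, at 1555 and 1053 and at 2743 and 2491. The *Ctsg*-led cells were deeper, with medians of 10589 and 11075.5 UMIs against 5589 and 5362. *Ctsg* is the chromosomal neighbor of *Gzme*, and *Gm4022* overlaps *Gzmf* on the opposite strand. Neither was among the genes left out of the clustering, and their part in the states was not tested. Of the NK-like cells of this finer clustering (302 in UT and 238 in BUP, 534 of them also in the class above), 153 and 94 were in the *Ctsg*-led state, and within it *Gzmc*, *Gzmd*, *Gzme*, *Gzmf* and *Gzmg* were all somewhat higher in BUP than in UT, although they were lower in the NK-like class as a whole.

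In single NK-like cells the rodent granzymes were detected together, in a nested order. After thinning, *Gzmg* was found in 39 cells of UT and 27 of BUP, and of these 97.4% and 100% also had *Gzmd*, 92.3% and 100% *Gzme*, 94.9% and 100% *Gzmc* and 84.6% and 88.9% *Gzmf*. *Gzmd* was seen in 26.4% and 25.3% of the cells without *Gzmg*. Of the cells with *Gzmd* (111 and 82), 91.9% and 95.1% had *Gzmc*, but of the cells with *Gzmc* (161 and 144) 63.4% and 54.2% had *Gzmd*. *Gzmd* was rare where *Gzmc* was not seen, at 5.84% and 4.00%. Of the 4 near copies *Gzmd*, *Gzme*, *Gzmf* and *Gzmg*, 55.6% of UT and 59.0% of BUP cells held none, and 9.84% in each library held all 4. *Gzma* did not follow this order, as *Gzmf* was seen in 23.9% and 21.4% of cells with *Gzma* and in 21.6% and 15.8% of cells without. Deeper cells and reads shared between near copies raise joint detection, and their part was not tested beyond thinning and the shared windows given above.

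**Figure D4:**
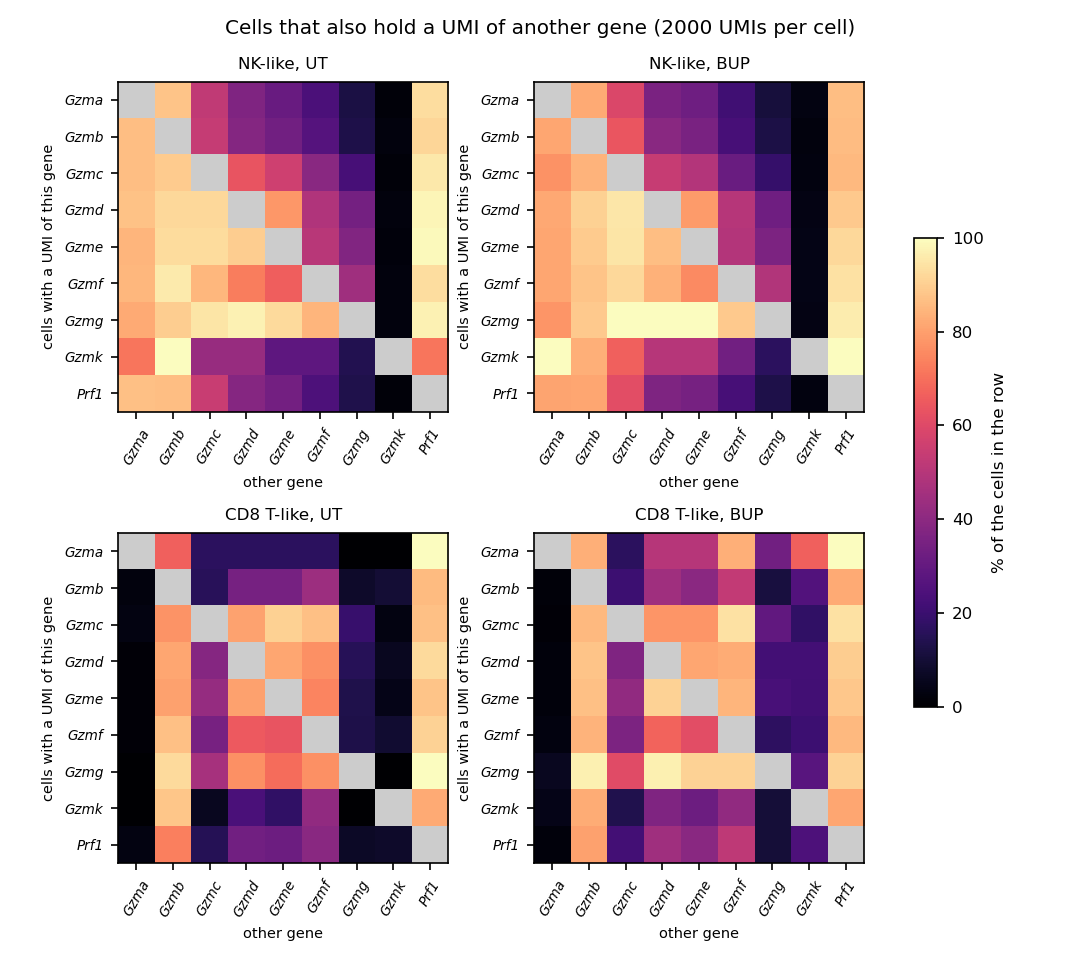
Percent of the cells with a UMI of the row gene that also held the column gene, at 2000 UMIs per cell, for NK-like and CD8 T-like cells of each library. In NK-like cells the *Gzmg* row is bright across the rodent granzymes (97.4% of UT NK-like cells with *Gzmg* held *Gzmd*). The *Gzmd* row there is bright for *Gzmc* and darker for *Gzmg*, while the *Gzma* row is bright for *Gzmb* (87.9%) and *Prf1* (93.2%).

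The 106 cycling NK-like cells held less granzyme RNA per UMI than the other NK-like cells, 20859 CPM in UT and 9056 in BUP. Markers of CD8 T cells and macrophages were higher in BUP in this class, with *Cd8b1* at 16.1 and 71.5 CPM, *Cd8a* at 19.7 and 49.0 and macrophage markers at 172 and 227, while *Ncr1* stood at 643 and 587 and *Cd3e* at 80.6 and 69.5, and their part in the difference was not tested. *Gzma* was nearly level between the libraries, at 4902 and 4666 CPM (log2 ratio -0.07, -0.15 to 0.01). *Gzmb* stood at 2854 and 1322 (-1.11) and *Prf1* at 1139 and 607 (-0.91). The lowest ratios, -6.38 for *Gzmf* and -5.23 for *Gzmg*, rested on few UT cells. Of 2001 *Gzmf* UMIs in UT 1550 were in 1 cell, against 21 UMIs in all BUP cells, and of 642 *Gzmg* UMIs 616 were in 1 cell, against 15. The 5 top UT cells held 97.7% of *Gzmf* and 95.7% of *Gzmd*. Of the 9 members 1, *Gzmk* (20 and 33 UMIs), was 1.5-fold higher and 7 were 1.5-fold lower, where 6.86% and 6.65% of 3716 genes were, and the member median was -1.11 against 0.00 for all genes tested. The median share per cell was close, 0.578% in UT and 0.536% in BUP.

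CD8 T-like cells outside cell cycle held all members but *Gzmk* at lower levels than NK-like cells, and in another mixture, 9292 CPM in all in UT and 11619 in BUP. *Gzmf* was again highest, at 2803 CPM in UT and 4119 in BUP. In UT, *Gzmb* (1678), *Prf1* (1640) and *Gzmd* (1583) followed with overlapping intervals, then *Gzme* (1049), *Gzmc* (298) and *Gzmg* (111), and last *Gzma* and *Gzmk*, at 64.3 each. In BUP the order was *Gzmf*, *Gzmd* (1956), *Gzmb* (1758), *Prf1* (1648), *Gzme* (1102), *Gzmc* (467), *Gzmg* (385), *Gzmk* (126) and *Gzma* (57.7), with no neighbors overlapping. The *Gzma* UMIs were in very few cells, with 89.2% in UT and 95.5% in BUP in the top 5. *Gzma* thus made up 0.692% and 0.497% of the granzyme and perforin UMIs of CD8 T-like cells, against 19.01% and 15.9% in NK-like cells.

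In all, 3 of the 9 members were at least 1.5-fold higher in BUP than in UT CD8 T-like cells, and these were *Gzmg*, *Gzmk* and *Gzmc*, and none was lower by that much, where 2.86% of 7244 genes were higher and 6.21% lower. *Gzmg* stood at 111 CPM in UT and 385 in BUP (160 and 881 UMIs, log2 ratio 1.80, 1.55 to 2.05). Its UMIs were concentrated, with 81 of the UT and 375 of the BUP UMIs in a single cell each and 83.1% and 68.6% in the top 5. When the members were allowed to shape the clusters, the ratio of *Gzmg* was 0.49. *Gzmc* stood at 298 and 467 CPM (0.65, 0.48 to 0.81). *Gzmf* (0.55, 0.50 to 0.61) lay just under the fold, at 1.47-fold, and *Gzmd* at 0.31 (0.23 to 0.38). *Gzmb* (0.07, -0.01 to 0.14), *Gzme* (0.07, -0.02 to 0.16), *Prf1* (0.01, -0.07 to 0.08) and *Gzma* (-0.16, -0.55 to 0.24) had intervals that included 0. The median of the members was 0.31 and that of all genes tested -0.06.

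The higher level of *Gzmk* came with a larger share of cells that held it. *Gzmk* stood at 64.3 CPM in UT and 126 in BUP (93 and 288 UMIs, log2 ratio 0.97, 0.63 to 1.32), with 22.6% and 11.8% of its UMIs in the top 5 cells. It was detected in 22.1% (16.9 to 28.1) of the UT and 39.3% (34.4 to 44.4) of the BUP cells, and after thinning to 2000 UMIs in 7.73% (4.57 to 12.1) of 220 and 23.6% (19.4 to 28.3) of 368 cells. In the tumor cell cluster led by *Ogn* and *Aspn* the thinned shares were 0.338% and 0.348%, and in NK-like cells 2.22% and 2.46%. Every *Gzmk* cell of this class also held *Cd3e*, 50 of 50 in UT and 151 of 151 in BUP. *Cd3e* is one of the markers by which the class was named, and it stood at 1524 and 1504 CPM. This overlap therefore cannot show where the *Gzmk* counts came from. The log2 ratio of *Gzmk* lay between 0.90 and 1.82 under the 8 other ways of processing.

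The thinned shares of the other members in CD8 T-like cells were higher in BUP for *Gzmb* (69.5% and 76.6%), *Gzmd* (29.5% and 39.1%), *Gzmf* (35.0% and 48.1%), *Gzmg* (5.91% and 8.97%), *Gzmc* (14.1% and 18.5%) and *Gzme* (30% and 35.1%), and lower for *Prf1* (81.4% and 78.5%) and *Gzma* (2.73% and 1.63%). For *Gzmf* the unthinned shares were 46.5% and 53.1%, and the thinned share in mature macrophage-like cells, taken as background, was 4.46% and 2.57%. The share of cells with at least 1 of *Gzmd*, *Gzme*, *Gzmf* and *Gzmg* followed from this, since 54.1% of UT and 43.5% of BUP cells held none and 3.64% and 7.34% held all 4. The median share of a cell's UMIs from the 9 genes was 0.346% and 0.384%, and the upper quartile 0.822% and 1.22%. At least 10% of the UMIs were from these genes in none of the 226 UT cells, which allows up to 1.62%, and in 3 BUP cells (0.781%).

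The CD8 T-like class held a state led by *Trav10*, *Trgc2*, *Calca*, *Osgin1*, *Trbv29* and *Cd7*, with 125 UT and 308 BUP cells. There, *Gzmk* stood at 74.1 CPM in UT and 149 in BUP, *Gzmg* at 185 and 472, *Gzmf* at 3474 and 4623 and *Gzmc* at 424 and 497. A state led by *Ccr7*, *Csf2*, *Adarb2*, *Gpm6b*, *Igfbp7* and *Rora* (90 and 63 cells) had *Gzmk* at 49.8 and 46.8, *Gzmg* at 43.5 and 53.8, *Gzmf* at 2295 and 2856 and *Gzmc* at 187 and 430. *Gzmk* and *Gzmg* were thus higher in BUP mainly in the first state, which held 125 of the 215 UT and 308 of the 371 BUP CD8 T-like cells of the finer clustering, while *Gzmc* was higher in BUP in both. Variable segments of the T cell receptor are among the leading genes of the first state, and each library pools 3 mice, so clones and mice cannot be told apart from states here.

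Detection of *Gzmk* did not follow that of the rodent granzymes. After thinning, *Gzmk* was seen in 17 UT and 87 BUP CD8 T-like cells, and *Gzmc* in 5.88% and 13.8% of these against 14.8% and 19.9% of the cells without *Gzmk*. *Gzmf* was seen in 41.2% and 41.4% of *Gzmk* cells and 34.5% and 50.2% of the rest, so the direction was not the same in the libraries. *Gzmb* was seen in 88.2% and 82.8% of *Gzmk* cells and 68.0% and 74.7% of the rest, and *Prf1* in 82.4% and 81.6%. The rodent granzymes were again detected together, but *Gzmc* was rarer than *Gzmd*, other than in NK-like cells. Of CD8 T-like cells with *Gzmc* (31 and 68), 87.1% and 94.1% held *Gzmf* and 80.6% and 77.9% *Gzmd*, while 38.5% and 36.8% of cells with *Gzmd* held *Gzmc*.

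Most members had lower levels in BUP than in UT cycling CD8 T-like cells, other than in the class outside cell cycle, and the difference between the classes was not tested. In the cycling class, the sum stood at 6292 CPM in UT and 5098 in BUP (-0.30, -0.35 to -0.26). *Gzmb* stood at 1216 and 1028 CPM (-0.24), *Prf1* at 1050 and 850 (-0.30), *Gzmf* at 1943 and 1596 (-0.28), *Gzmd* at 1024 and 766 (-0.42) and *Gzme* at 644 and 451 (-0.51). *Gzmc* (186 and 189 CPM, 0.02, -0.22 to 0.26) and *Gzmg* (66.5 and 79.1, 0.25, -0.14 to 0.65) had intervals that spanned 0. *Gzmk* was the member past 1.5-fold on the higher side, at 68.1 and 118 CPM (83 and 252 UMIs, 0.79, 0.43 to 1.17), and *Gzma* the member past it on the lower side, at 94.4 and 20.1 (115 and 43 UMIs, -2.23). Of all 7162 genes tested 4.06% were higher by that much and 5.40% lower. The *Gzma* UMIs were nearly all in the top 5 cells, 94.8% in UT and 100% in BUP, and the ratio was 1.08 when the members were allowed to shape the clusters. The member median was -0.28, and that of all genes -0.04.

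Of the cycling CD8 T-like cells, 32.3% in UT and 51.3% in BUP held *Gzmk*, and after thinning in 11.96% (6.12 to 20.4) of 92 and 17.1% (12.01 to 23.3) of 187, with intervals that overlap. Thinned shares of *Gzmb* were 65.2% and 73.3%, of *Gzmf* 42.4% and 40.6% and of *Prf1* 73.9% and 64.7%. In the replication-led class, *Gzmk* stood at 51.9 and 76.5 CPM (0.56, -0.11 to 1.24) and was seen in 25.4% and 43.9% of cells, or 3.39% and 12.3% after thinning. None of the 8 members with at least 50 UMIs there was 1.5-fold higher or lower, where 4.08% of 4046 genes were higher and 7.02% lower. The sum had a log2 ratio of -0.18 (-0.23 to -0.13), with *Gzmc* lowest at -0.42 and *Prf1* at 0.11.

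**Figure D5:**
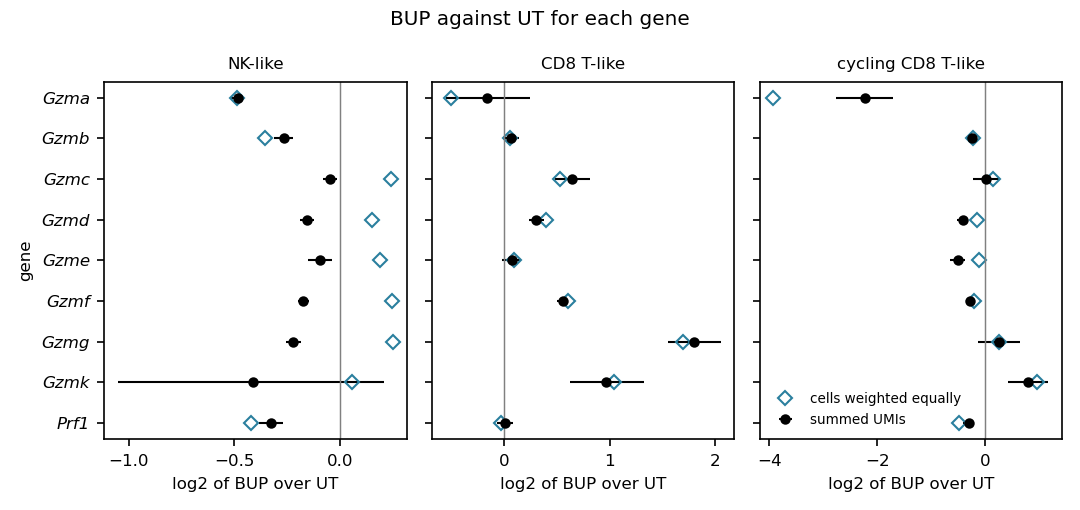
Log2 ratio of BUP over UT for each member in NK-like, CD8 T-like and cycling CD8 T-like cells, from summed UMIs (black points with 95% counting intervals) and with each cell weighted equally (open diamonds). In NK-like cells the diamonds of *Gzmc* to *Gzmg* lie above 0 (0.15 to 0.25) and the points below it, and *Gzmk* lies above 0 in both CD8 T-like classes drawn (0.97 and 0.79).

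Outside these classes, *Gzmb* was the member with a level of its own in other T cells. In an unnamed cluster with *Foxp3*, the regulatory T cell factor, and hemoglobin genes among its leading genes (88 UT and 64 BUP cells), *Gzmb* stood at 1401 CPM in UT and 661 in BUP (422 and 160 UMIs), while no other member exceeded 149 in UT or 99.1 in BUP. The cluster was mixed, with *Foxp3* at 276 and 107 CPM and *Hbb-bs*, a hemoglobin gene, at 2839 CPM in UT and 0 in BUP. Gamma-delta T-like cells (16 and 12), with *Il17a* at 1858 and 1438 CPM, had *Gzmb* at 330 and 223 CPM, no other member above 86.8, and no UMI of *Gzmc*, *Gzmd*, *Gzme*, *Gzmg* or *Gzmk*. In conventional dendritic cells of the cDC1-like class *Gzma* stood at 92.7 and 210 CPM, and in migratory dendritic-like cells *Gzmb* at 89.3 and 156.

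Clusters with NK or T markers that were left unnamed held large sums. These were 23369 CPM in UT and 19544 in BUP in the low-depth cluster (180 and 124 cells, medians 1974.5 and 1900 UMIs), 20496 and 10235 in a cluster that also held neutrophil markers (51 and 58 cells), and 7246 and 3116 in a cluster with T and macrophage markers (340 and 335 cells). Macrophage-like and neutrophil-like cells stood much lower, and in these 4 classes higher in UT than in BUP, at 172 and 108 CPM in mature macrophage-like, 101 and 41.5 in *Inhba* and *Cxcl3* macrophage-like, 248 and 90.1 in monocyte-like and 358 and 102 in neutrophil-like cells. Not all myeloid classes were lower in BUP. Cycling macrophage-like cells stood at 198 and 151, but interferon-led macrophage-like cells at 312 and 333. An unnamed cluster with neutrophil and macrophage markers stood at 89.8 and 202. The *Ogn* and *Aspn* tumor cluster stood at 90.9 and 26.7, and the cycling tumor cluster higher, at 471 and 204. In the latter the members made up 6.41% of the UMIs of the highest cell in UT and 2.60% in BUP. The mixture of members within these sums varied between the classes. *Gzma* made up 25.6% and 17.2% and *Gzmf* 18.5% and 21.2% of the member UMIs of mature macrophage-like cells, against 19.01% and 15.9% and 24.8% and 25.7% in NK-like cells. In neutrophil-like cells *Gzma* made up 8.16% and 7.96% and *Gzmf* 28.6% and 19.5%. In the *Ogn* and *Aspn* tumor cluster *Gzma* made up 30.03% and 15.97% and *Gzmf* 9.90% and 13.02%, and in *Inhba* and *Cxcl3* macrophage-like cells *Gzma* made up 20.4% and 4.305%.

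The mast-like cells (35 in each library) showed a high sum, 30056 CPM in UT and 30746 in BUP, that rested on few cells. They held *Cma1*, the mast cell chymase, at 17266 and 18153 CPM. A single BUP cell held 2140 member UMIs of its 8466 (25.3%), beside 115 UMIs of *Cma1* and 4 of *Ncr1*. The 7 cells with a UMI of an NK marker other than *Tyrobp* held 3912 of the 4760 member UMIs, 12.2% of their RNA, while in the other 63 cells the members made up 0.681%. Of the 848 member UMIs of these 63 cells, 605 were in a single UT cell with a doublet score in the top 6%. The median mast-like cell had 0.0567% in UT and 0.0505% in BUP.

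*Gzmk* counts outside T cells were highest in the cycling tumor cluster (511 and 691 cells), with 148 UMIs in UT and 127 in BUP and a UMI in 18% and 13.9% of cells. These cells are deep, with medians of 33159 and 30037 UMIs, and after thinning the shares were 1.78% and 2.03%. Of the 92 and 96 cells with *Gzmk*, 11 and 21 also held *Cd3e*. *Esm1*, which overlaps the annotated extent of *Gzmk* on the opposite strand, stood at 396 and 327 CPM in this cluster. In UT, 19.2% of the cells with *Esm1* and 4.65% of those without held *Gzmk*, and in BUP 13.7% and 14.9%. The part of *Esm1* in the *Gzmk* counts of this cluster was not tested. In CD8 T-like cells *Esm1* had 6 and 5 UMIs, and neutrophil-like cells had no *Gzmk* UMI.

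Genes of the pathway around the members were also compared in NK-like cells. Of all 7934 genes tested there, 1.71% were at least 1.5-fold higher in BUP and 5.66% lower. Of 12 genes of granule formation and release that were measured well enough in NK-like cells, none was 1.5-fold higher or lower and the median was -0.02, with *Nkg7*, a granule membrane protein, at 2054 and 2067 CPM. None of 12 granzyme inhibitors, uptake receptors and substrates and none of 15 transcription factors passed it either, with medians of -0.24 and -0.07. Of 8 other death ligands and effector cytokines *Xcl1*, a chemokine for cDC1, was higher (300 and 777 CPM, 1.37), and *Ccl3* (72.4 and 35.7, -1.02) and *Ccl4* (396 and 263, -0.59) were lower. Of 10 cytokine receptors *Il21r* was higher (8.88 and 14.1 CPM, 0.67, -0.14 to 1.48) and *Il2ra*, the high-affinity interleukin-2 receptor chain, lower (39.3 and 24.4, -0.69). *Ctsg*, the tested neighbor of the locus, stood at 198 and 169 CPM (-0.23). *Tnf*, at 55.0 and 72.3 (0.39), was the third highest ratio of the lists.

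In CD8 T-like cells outside cell cycle, the cytokine receptors were the list with most members past the fold, 4 of 10, all lower in BUP, where 6.21% of all genes tested were lower, with a median of -0.40. These were *Il2ra* (109 and 54.2 CPM, -1.0), *Il12rb2* (227 and 119, -0.93), *Il18rap* (181 and 102, -0.83) and *Il18r1* (130 and 81.3, -0.68), which carry signals of interleukin-2, interleukin-12 and interleukin-18. *Eomes*, a T-box factor of cytotoxic cells, was the 1 of 15 transcription factors that was higher (38.7 and 79.1 CPM, 1.03), and 1 was lower. *Serpinb9b*, of the family of granzyme B inhibitors, was the 1 of 11 inhibitors and substrates that was higher (581 and 903, 0.64), with 1 lower, and *Stx11*, a fusion protein of granule release, stood at 32.5 and 46.3 (0.51). Of 12 granule genes 1 was lower, *Ctsl* (60.9 and 17.1, -1.84), a lysosomal protease that macrophages also make, in a class whose macrophage marker RNA was 316 and 167 CPM. Of 8 cytokines 2 were lower, among them *Ccl3* (443 and 184, -1.27). The medians of these other 4 lists lay between -0.24 and -0.04, against -0.06 for all genes tested.

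In cycling CD8 T-like cells the same receptors list again had 4 of 10 genes lower, against 5.40% of all genes tested, and none higher, led by *Il2ra* (137 and 57.6 CPM, -1.25), with a median of -0.26 against -0.04 for all genes. *Eomes* was higher again (46.8 and 82.4, 0.82) as 1 of 15 transcription factors, and 2 were lower, among them *Hif1a*, the hypoxia factor (378 and 200, -0.92). Of 8 cytokines *Ccl4* was higher (304 and 514, 0.76), 1 was lower, and *Ccl5* stood at 505 and 653 (0.37). Of 12 granule genes *Stxbp2*, which releases granules together with *Stx11*, was lower (76.3 and 36.0, -1.08), and none of 11 inhibitors and substrates passed the fold. *Eomes* and *Gzmk* were thus both higher in BUP in the CD8 T-like class outside cell cycle and in the cycling one. In the replication-led class, 0 of 12 transcription factors tested were 1.5-fold higher. *Gzmk* had an interval that spanned 0 there (0.56, -0.11 to 1.24). A link between the 2 genes was not tested.

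Likeness of other genes to each member was taken as Pearson's r of log2(CPM + 1) across the sums of 30 cell classes in 2 libraries. These 60 points share library, depth and free RNA. *Gzma* was most like the NK genes *Ncr1* (0.84), *Rab27b* (0.81) and *Klrg1* (0.81). *Gzmb* was most like *Il2rb* (0.96), *Nkg7* (0.95) and *Sytl3* (0.93), and *Prf1* most like *Nrgn* (0.91), *Nkg7* (0.91) and *Klre1* (0.90). *Fcrl6* led for all 5 rodent granzymes, at 0.88 for *Gzmc*, *Gzmd* and *Gzmf*, 0.89 for *Gzme* and 0.80 for *Gzmg*. It was followed by *Gm44040* and *Dscam* for *Gzmc*, *Nrgn* and *Gm44040* for *Gzmd*, *Gm44040* and *Tmprss6* for *Gzme*, *Tmprss6* and *Gipc2* for *Gzmf* and *Gm15518* and *Dscam* for *Gzmg*. *Gzmk* was most like *Gipc2* (0.87), *Sh2d1a* (0.87) and *Klre1* (0.85). Among the members, *Gzmd* and *Gzme* were most alike (0.95), followed by *Gzmd* and *Gzmf* (0.94), *Gzmb* and *Prf1* stood at 0.90, and *Gzma* and *Gzmk* at 0.49.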

How the data were processed

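The values are the deposited counts of UMIs per gene and cell barcode, whole numbers that the authors made with Cell Ranger 8.0.1 on GRCm39 per the labels' processing notes, without normalization. Cells were required to have over 100 UMIs, less than 20% of them mitochondrial, which left 7163 of 7556 in UT and 6776 of 7221 in BUP, with medians of 8430 and 10420 UMIs. They were clustered in Seurat 5.3.0 (R 4.3.3) from log-normalized counts of both libraries, not integrated, with 2000 variable genes, 20 principal components and resolution 0.5. The 9 members and the granule genes were left out of the variable genes. Clusters with a *Ptprc* UMI in at least 30% of cells were clustered again, and T and NK cells once more. Names rest on marker lists and end in -like. Classes were called cycling where 7 of 8 cell-cycle genes were over 2-fold, and replication-led where 4 of 8 were. No doublets were removed, and 1 alternative left out the top 6% of Scrublet scores (scanpy 1.11.5).

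UMIs were summed per class and library in Python 3.11.15 (NumPy 2.4.6, SciPy 1.17.1), scaled to 1000000 UMIs, and compared as log2 ratios with an exact interval conditional on the sum. The calculation was tested on simulated data. A gene was past the fold at 1.5-fold or more, among genes with at least 50 UMIs in the class over both libraries. Shares of cells were also taken after thinning each cell at random to 2000 UMIs, leaving out shallower cells, and a count of 0 was read as allowing 3 counts. Members, gene lists and markers were chosen with earlier results of these data known. Besides the members, the 3 highest and 3 lowest ratios of the lists per class and the 3 genes most like each member (at least 200 UMIs) are named. Leading genes of clusters, *Nkg7* and the receptors lower in CD8 T-like cells were named after their values were seen. Exons were read from GRCm39 and promoters from a RefSeq table on GRCm38.p6, which held all 9 members, with Biopython 1.88, and figures were drawn with matplotlib 3.10.9. Alternatives were stricter limits for cells (1000 UMIs, 500 genes, less than 10% mitochondrial), resolution 1.0, 30 principal components, members allowed among the variable genes, cells weighted equally, thinned cells, median-ratio scaling, doublet removal, a fold of 2 and a minimum of 200 UMIs. Those for cycling NK-like cells and the split of the mast-like cells were chosen after seeing the data.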

Additional observations from a re-analysis of the deposited data

Results flagged for a closer look

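A total of 4 rodent granzymes had ratios of BUP over UT with opposite signs in different killer cell classes, each with a counting interval that did not include 0, and in no case was the difference between the classes tested. *Gzmc* had a log2 ratio of -0.05 in NK-like cells and 0.65 in CD8 T-like cells outside cell cycle. *Gzmg* stood at -0.22 and 1.80 in the same classes. *Gzmd* stood at -0.16 in NK-like, 0.31 in CD8 T-like and -0.42 in cycling CD8 T-like cells, and *Gzmf* at -0.17, 0.55 and -0.28. The ratios of NK-like cells turn positive for all 4 genes when each cell has the same weight, and 5 NK-like cells held 61.1% of the *Gzmg* UMIs in UT and 82.1% in BUP. With each cell weighted equally, the log2 ratio of the summed members was 0.33 in CD8 T-like cells outside cell cycle and -0.23 in those in cell cycle.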

How the results depend on the processing

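Each condition has 1 library, so neither leaving out a replicate nor a fit with pairs could be made. No paired analysis was possible because each group has 1 library. The log2 ratio of the summed members in NK-like cells was -0.23, and it was -0.20 with 30 principal components, -0.20 with doublets removed, -0.18 in thinned cells, -0.15 with median-ratio scaling and -0.057 with cells weighted equally. In CD8 T-like cells outside cell cycle it was 0.32, and it was 0.17 with members among the variable genes, 0.37 in thinned cells and 0.38 with median-ratio scaling. In cycling CD8 T-like cells it was -0.30, and -0.23 both with members among the variable genes and with cells weighted equally. In cycling NK-like cells it was -1.20, and -1.29 with the stricter cell filter, -1.28 with 30 principal components, -0.57 with members among the variable genes, -0.81 with cells weighted equally and -0.74 in thinned cells. None of these sums changed sign. With a 2-fold limit the number of members past it went from 3 to 1 in CD8 T-like, from 2 to 1 in cycling CD8 T-like and from 8 to 5 in cycling NK-like cells, and with at least 200 UMIs from 2 to 1 in cycling CD8 T-like cells.

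Of 296 ratios of single members under an alternative, 206 stayed within the counting interval of the reported value and 81 moved beyond it, and 9 whose interval lay on 1 side of 0 changed sign. Ratios whose interval spans 0 are counted by the interval alone, so *Gzmk* in NK-like cells, at 0.06 with cells weighted equally, is among the 206. In NK-like cells *Gzmc* was 0.24 with cells weighted equally, 0.13 in thinned cells and 0.028 with median-ratio scaling, *Gzmd* 0.15 and 0.0084 in the first and second of these, and *Gzme*, *Gzmf* and *Gzmg* 0.19, 0.24 and 0.25 with cells weighted equally. *Gzma* in cycling CD8 T-like cells was 1.08 with members among the variable genes. Thinning moved 46 of 54 shares of cells beyond their interval. Removal of doublets moved the share of UMIs in NK-like and T-like cells beyond its interval for 9 of 9 members. In mast-like cells the members made up 3.04% of UMIs, and 0.681% in cells without a UMI of NK markers other than *Tyrobp*. The cause of these shifts was not tested. Some values rest on few counts, among them *Gzmk* in NK-like cells (64 and 35 UMIs) and *Gzma* in replication-led CD8 T-like cells (16 and 4).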
